A study of Mus musculus with 2 samples.

Results

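The chemokines and chemokine receptors are described here in cells from the collecting duct of the mouse kidney, the tube that receives urine from the nephrons and sets its final water and acid content. Genes were taken by name from the array's own annotation: every Ccl, Cxcl, Ccr and Cxcr gene with a number, together with Cx3cl1, Cx3cr1, Xcl1 and Xcr1. The rule took 55 of 30038 named genes and 71 of 41173 probes, and it used no measured value. Of these genes 35 encode ligands and 20 encode receptors.

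The Gata2 CKO cells came from mice of 8 weeks whose genotype label is Gata2flox/-::Pax8-rtTA::Tet-Cre, and the WT cells came from mice of the same age labelled wild type. Doxycycline, which switches on Cre through the rtTA transgene, was given for 4 weeks from an age of 4 weeks, and the labels repeat this for both groups. Pax8-rtTA acts in renal tubules at large, so the deletion is not limited to the collecting duct, and the null allele leaves 1 Gata2 copy fewer in all other cells. Both sexes were mixed in each group. Magnetic beads with the lectin DBA, which marks this epithelium, were used to pick out the cells. Each group was 1 one-colour array, with 3 mice per genotype in the design text and array names that call each a mix, so no test was possible and no difference below has a replicate check.

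Chemokines are small secreted or membrane-held proteins that guide leukocytes along their gradient, and they act through G protein-coupled receptors. The CC and CXC classes are named for the spacing of their first cysteines. Inflammatory chemokines, such as Ccl2 and Cxcl10, are induced by NF-kB and interferon signalling in epithelium and leukocytes alike, while homeostatic ones, such as Cxcl12, are made at rest. In the kidney, tubule cells are a known source of Ccl2 in injury, whereas most of the receptors are carried by leukocytes.

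A level is given below as the signal of a probe in percent of the 75th percentile signal of its array, which was 250.03 on the CKO array and 314 on the WT array. A difference is CKO minus WT on the log2 scale, with the error that the scanner software gives for the spots. The labelled cells were there on both arrays: the water channel gene Aqp2 had a level of 11233% on the CKO array and 13315% on the WT array. Gata2 itself differed by −0.37 ± 0.20 and −0.32 ± 0.20 (spot error) at its 2 probes, and whether these lie in the deleted part was not analysed here. Macrophage genes were present too, with all 15 markers of the list well above background on at least 1 array. In CKO cells 14 of them were lower, against 42.5% of all genes. Their summed level was 8240% on the CKO array and 13489% on the WT array. Without Lyz2 the sums were 5770% on the CKO array and 7595% on the WT array. Markers of natural killer cells were well above background on neither array for 5 of 5 genes.

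Chemokines and their receptors were mostly lower in the Gata2 CKO cells. Of the 55 genes, 32 were well above background on at least 1 array: 26 on both, 6 on the WT array alone and 0 on the CKO array alone. Of all 18868 genes well above background on at least 1 array, 887 were so on the WT array alone and 390 on the CKO array alone. A difference could be given for 31 of the 32 members, and 26 of these were lower and 5 higher in CKO cells. Members measurable on the WT array alone could only come out lower, by the way the bound was set. Among the 26 measured on both arrays, 21 were lower and 5 higher. For 5 members measured on both arrays, Ccl25, Ccl27a, Ccl5, Cx3cl1 and Xcr1, the difference was smaller than the spot error. The bounds of Cxcl17, Ccr6 and Cxcr6 were smaller than it too. Over all genes with a difference, 42.5% were lower. At least 2-fold lower were 7 of the 31 members, or 22.6%, against 2.88% of all 18690 genes. They were Ccl2, Cxcl10, Cxcl1, Ccl7, Ccl12, Cxcr4 and Ccr2, of which Ccl7 and Ccr2 are such bounds. With probes well above background on both arrays only, 5 members were at least 2-fold lower, against 2.44% of all genes. At least 2-fold higher was 1 member, Ccl17, against 1.50% of all genes. The median difference was −0.58 for the members and 0.046 for all genes. In RNA of bulk cells, fewer cells of a type and less RNA per cell cannot be told apart.

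**Figure D1:**
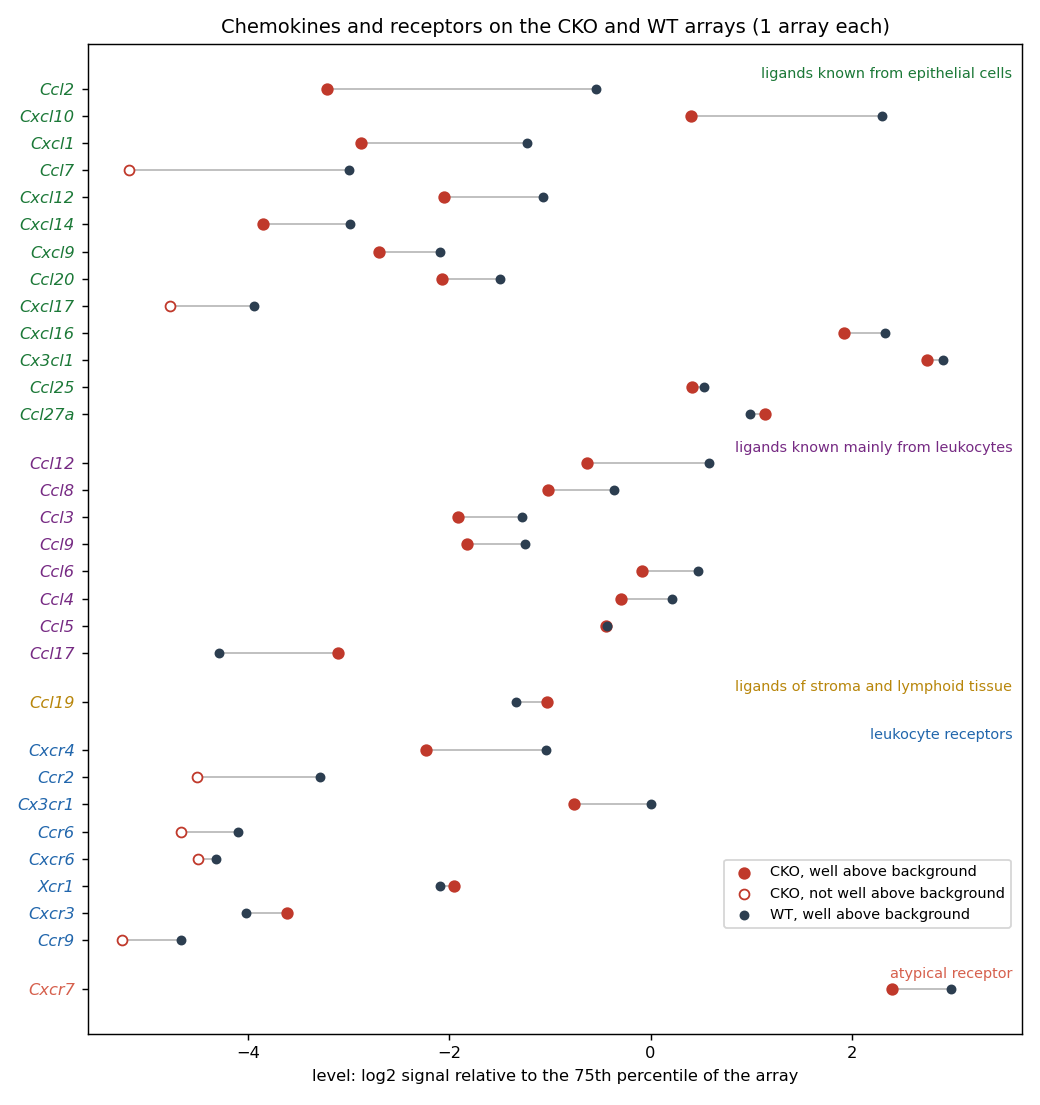
Level of the named members well above background on at least 1 array, as log2 of the signal relative to the 75th percentile of its array, for the CKO array (red) and the WT array (dark). Open circles were not well above background, and the lines join the points of 1 gene. The red points lie left of the dark ones for most genes, with Ccl17 the widest gap the other way.

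Among the ligands known from epithelial cells, 13 of 18 genes were well above background on at least 1 array, 12 of them lower in CKO cells. Their median difference was −0.60, and 4 were at least 2-fold lower. Of all genes, 42.5% were lower and 2.88% at least 2-fold lower. Ccl7 and Cxcl17, measurable on the WT array alone, could only come out lower. Cxcl2, Cxcl5, Cxcl11, Cxcl15 and Ccl28 were well above background on neither array. Ccl2, the main attractant of monocytes through the receptor Ccr2, had a level of 10.72% on the CKO array and 68.5% on the WT array. The difference was −2.68 ± 0.25 (spot error), or 6.39-fold lower, the largest difference of the 31 members. Its probe, at chr11:81850650-81850709 (mm9), was printed 10 times on each array. The 10 spots ran from 6.45% to 16.3%, with a median of 10.8%, on the CKO array, and from 64.1% to 72.8%, with a median of 68.3%, on the WT array. The 2 sets of spots thus did not overlap, and those of the CKO array scattered more, with a standard deviation of 0.38 on the log2 scale against 0.055 on the WT array. These spots share 1 RNA sample per genotype and say nothing of mice.

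Cxcl10, an interferon-induced ligand of Cxcr3 that attracts T cells, had a level of 132% on the CKO array and 493% on the WT array. This was a difference of −1.90 ± 0.20 (spot error). The kappaB site, bound by NF-kB, and an interferon element are the textbook control elements of this gene. The stretch of 250 bases before its start, chr5:92348890-92349139 on the minus strand (RefSeq, GRCm38.p6), is shown because it holds both. Capitals mark matches on either strand to the kappaB motif, GGGA and CC with any 4 bases between them, and to the interferon element, GAAA and GAAA with any 2 bases between them.

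Cxcl10: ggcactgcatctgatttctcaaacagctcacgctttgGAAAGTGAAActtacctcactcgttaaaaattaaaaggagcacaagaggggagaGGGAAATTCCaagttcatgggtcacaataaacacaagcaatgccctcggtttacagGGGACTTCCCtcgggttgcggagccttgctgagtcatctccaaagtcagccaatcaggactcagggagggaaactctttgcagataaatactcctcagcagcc

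The interferon match lies at −213 to −204 from the start, and the kappaB matches at −159 to −150 and −103 to −94, the last one on both strands. Further downstream there is 1 match to the AP-1 letters TGANTCA and 1 to the GATA letters AGATAA. Cxcl9, which binds Cxcr3 as well, had a level of 15.4% in CKO cells and 23.4% in WT cells and differed by −0.60 ± 0.23 (spot error), while Cxcl11 was well above background on neither array.

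Cxcl1, an attractant of neutrophils through Cxcr2, had a level of 13.6% on the CKO array and 42.8% on the WT array. The difference was −1.65 ± 0.23 (spot error), or 3.15-fold lower. It was the 1 gene of 5 in its class with a measurable level. Its close relative Cxcl2 had signals of 3.28 on the CKO array and 11.0 on the WT array, below the lowest signals well above background, 11.6 on the CKO array and 12.0 on the WT array. Cxcl3 had signals of 2.40 and 2.50 on the CKO and WT arrays, near the negative controls with their medians of 2.53 and 2.67, and Cxcl5 and Cxcl15 were not well above background either. Cxcl1, Cxcl2 and Cxcl3 lie in 1 cluster on chromosome 5, with Cxcl15 between Cxcl3 and Cxcl1, and share a kappaB match, which the last 110 bases before each start show (RefSeq, GRCm38.p6, plus strand). They are chr5:90891135-90891244, chr5:90903789-90903898 and chr5:90785991-90786100, and capitals mark the same kappaB motif.

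Cxcl1: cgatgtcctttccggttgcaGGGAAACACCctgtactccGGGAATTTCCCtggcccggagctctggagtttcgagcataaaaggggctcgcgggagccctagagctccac

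Cxcl2: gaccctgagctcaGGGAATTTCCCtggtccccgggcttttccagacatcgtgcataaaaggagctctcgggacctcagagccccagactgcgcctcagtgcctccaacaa

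Cxcl3: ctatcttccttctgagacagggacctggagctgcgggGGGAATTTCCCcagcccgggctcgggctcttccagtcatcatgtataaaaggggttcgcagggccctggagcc

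All 3 hold the same kappaB letters, matched on both strands at a shift of 1 base, and Cxcl1 has 1 more match before it. Of the 3 genes, Cxcl1 alone was well above background. A promoter was found for 41 of the 55 genes. Ccl2, Ccl7, Ccl5, Ccl4, Ccl11, Cxcl5, Cxcl11 and Cxcl16 were among those without one. Several of the 41 have more than 1 start, and of 45 member promoters, 40% held a kappaB match in 250 bases, against 17.6% of all 32851 promoters. For the interferon element the shares were 6.67% and 2.98%, for the AP-1 letters 11.1% and 6.75%, and for the GATA letters 15.6% and 9.99%. These shares count promoters, and overlapping promoters of Ccl27a hold the same kappaB match. Among the members with a promoter and a difference, 7 of 24 had a kappaB match, and among those at least 2-fold lower 2 of 5. These 2 counts are by gene, over all its starts, so their unit differs from that of the shares. No share by gene was computed beside them, so they show no link between the motif and a difference. The matching letters are descriptions of the sequence, not sites shown to be bound.

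Ccl7, another ligand of Ccr2 and the neighbour of Ccl2 on chromosome 11, was measurable on the WT array alone. Its level there was 12.5%, and the CKO signal of 6.87 was below the lowest one well above background. It was at least 2.71-fold lower by this probe and at least 2.08-fold lower by its other probe. Cxcl12, which holds Cxcr4-bearing cells in place, had a level of 24.0% on the CKO array and 47.7% on the WT array at the brighter of its 2 probes. The difference was −0.99 ± 0.21 (spot error) there, and −1.42 ± 0.34 at the other probe, which was placed on a different transcript, so both probes were lower. Cxcl14, a chemokine of epithelia at rest, differed by −0.86 ± 0.30 (spot error), and Ccl20, the ligand of Ccr6, by −0.58 ± 0.22. The mucosal chemokine Cxcl17, measurable on the WT array alone, had a bound of 1.40-fold lower. On the log2 scale this was −0.49, smaller than its spot error of 0.55.

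The membrane-held chemokines had a median difference of −0.29. Cx3cl1, or fractalkine, which tethers cells bearing Cx3cr1, had a level of 671% on the CKO array and 749% on the WT array. Its difference of −0.16 was smaller than the spot error of 0.20. A second, dim probe of Cx3cl1 had signals of 3.54 on the CKO array and 15.4 on the WT array. It was measurable on the WT array alone, with a bound of −0.08 against a spot error of 1.02. Cxcl16, which is also shed from the surface and binds Cxcr6, had a level of 379% in CKO cells and 505% in WT cells. Its probes gave −0.41 and −0.36, each with a spot error of 0.20. Ccl25 and Ccl27a, known from intestine and skin, were measured at −0.11 and 0.15, both below the spot error of 0.20. The 2 probes of Ccl25 disagreed in sign, at −0.11 and 0.14. Ccl27a has near-identical copies in the mouse genome, so its identity is uncertain.

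Ligands known mainly from leukocytes ranged from −1.22 to 1.18. Of 13 genes 8 were well above background on both arrays, with a median difference of −0.57. Of these 7 were lower, against 42.5% of all genes. Ccl12, which also binds Ccr2, had a level of 64.4% on the CKO array and 150.0% on the WT array, at −1.22 ± 0.21 (spot error). Ccl8, listed here with the Ccr2 ligands, had a level of 49.2% and 77.5% on the CKO and WT arrays, at −0.66 ± 0.21. With Ccl2 and Ccl7 the 4 genes listed as Ccr2 ligands were thus all lower, with a median of −1.33, Ccl7 at its bound. At least 2-fold lower were 3 of them. Of all genes, 42.5% were lower and 2.88% at least 2-fold lower. Whether each of the 4 acts on Ccr2 in the mouse was not analysed here.

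The macrophage chemokines Ccl3, Ccl9, Ccl6 and Ccl4 lay close together. Ccl3 was at −0.63 ± 0.21 (spot error), Ccl9 at −0.58 ± 0.21, Ccl6 at −0.56 ± 0.20 and Ccl4 at −0.51 ± 0.21. Ccl5, made by T cells and many other cells, had a level of 73.5% on the CKO array and 73.8% on the WT array, and differences of −0.01 and 0.09 at its 2 probes. Ccl17, an attractant of Ccr4-bearing T cells known from dendritic cells, was higher in CKO cells by 1.18 ± 0.34 (spot error). Its level of 11.6% on the CKO array and 5.10% on the WT array was dim, and the lowest level well above background on the WT array was 3.83%. Ccl22, the other Ccr4 ligand, was well above background on neither array. Ccl1, Ccl24 and Xcl1 were not either.

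Of the ligands of stroma and lymphoid tissue, Ccl19 alone was well above background. Its brighter probe gave 0.31 ± 0.21 (spot error) and its other probe −0.35 ± 0.32, so the direction depends on the probe, and copies of Ccl19 and Ccl21a in the mouse genome make both uncertain. Ccl11, Ccl21a and Cxcl13 were well above background on neither array.

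**Figure D2:**
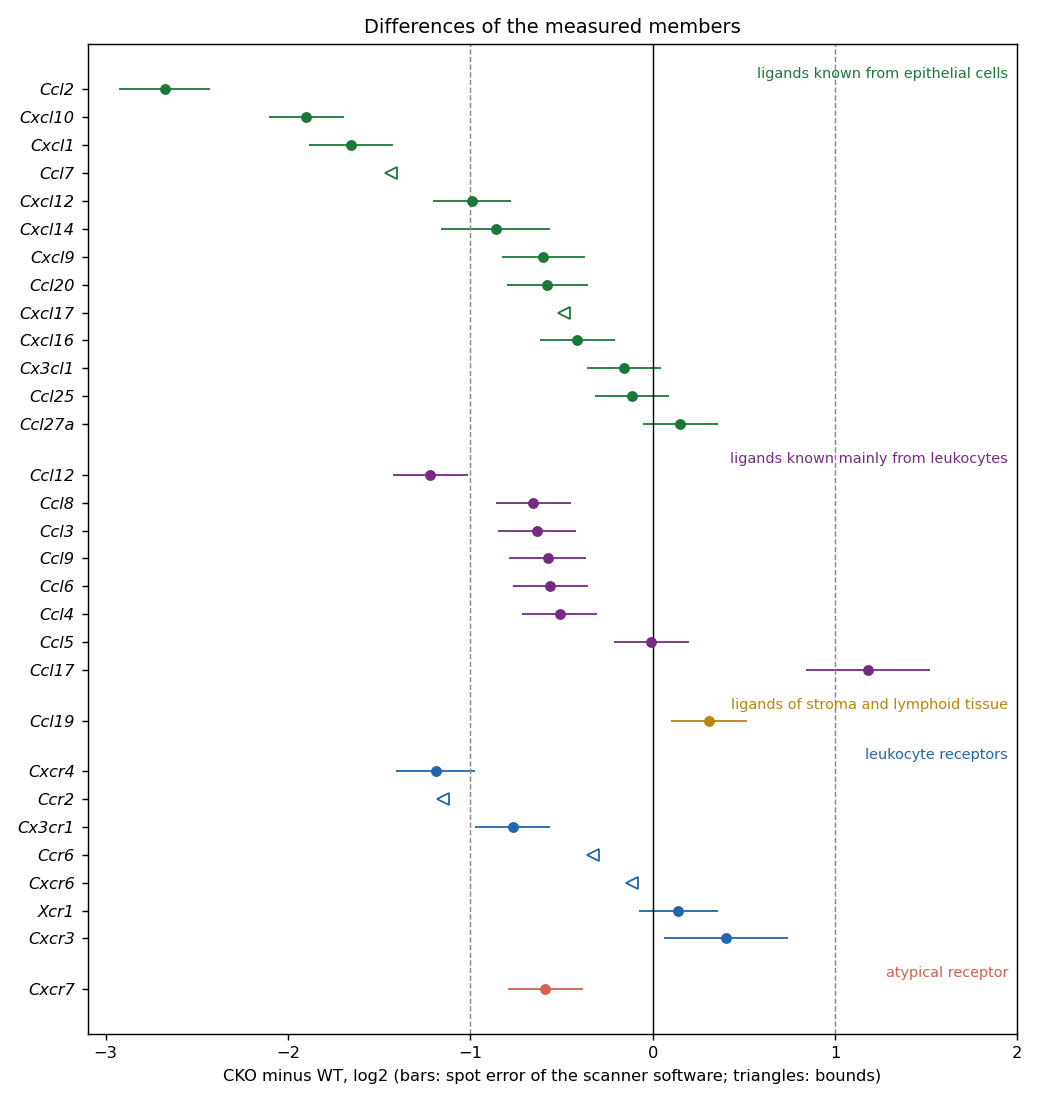
Difference of the named measured members, CKO minus WT on the log2 scale, grouped by the role of the gene, with the spot error as bars and open triangles for lower bounds of the decrease. Dashed lines mark 2-fold. Ccl2 lies furthest to the left at −2.68, and Ccl17 alone passes the right-hand line at 1.18.

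Most leukocyte receptors were dim or not measurable. Of 19 genes 10 were well above background on neither array, among them the neutrophil receptors Cxcr1 and Cxcr2, the lymphocyte receptors Ccr7, Cxcr5, Ccr4 and Ccr8, and Ccr1, Ccr1l1, Ccr3 and Ccr10. Of the 8 with a difference, 6 were lower, at a median of −0.55. Over all 9 receptors with a difference it was −0.59, and 7 were lower. Of all genes 42.5% were lower, and Ccr2, Ccr6 and Cxcr6, measurable on the WT array alone, could only come out lower.

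Cxcr4, the receptor of Cxcl12 on many leukocytes and progenitors, had a level of 21.2% on the CKO array and 48.5% on the WT array, at −1.19 ± 0.22 (spot error). That probe lies at chr1:130485079-130485138 (mm9). Its other probe gave −1.50 ± 0.26, so both were at least 2-fold lower. Ccr2, carried by inflammatory monocytes, was at least 2.22-fold lower, since its CKO signal of 11.0 was not well above background and its WT signal was 32.2. The other Ccr2 probe was measurable on neither array. Cx3cr1, on resident macrophages of the kidney, had a level of 59.1% in CKO cells and 101% in WT cells, at −0.77 ± 0.21 (spot error). Its second probe, measurable on the WT array alone, had a bound of 1.29-fold lower, smaller than its spot error (−0.37 against 0.43). Markers of the monocyte lineage, which carries Ccr2 and Cx3cr1, were lower too, with F4/80 (Adgre1) at −0.86, Csf1r at −0.90, C1qa at −0.80 and the whole list at a median of −0.80. The part of these cells in the differences of the receptors and ligands was not tested. One marker of the list, Ly6c2, was at 0.35, and Ccr2 is itself a member of it. The size of the marker differences depended on the probe, from −0.86 to −0.28 for Adgre1 and from −1.03 to −0.44 for Csf1r.

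Ccr6 had a bound of 1.26-fold lower and Cxcr6 one of 1.08-fold lower, each well above background on the WT array alone. Both were smaller than the spot error, at −0.33 against 0.47 for Ccr6 and −0.11 against 0.43 for Cxcr6. Ccr9 was measurable on the WT array alone but too dim for a bound. Xcr1, a receptor of cross-presenting dendritic cells, was at 0.14 ± 0.22 (spot error), and Cxcr3, on activated T cells, was at 0.40 ± 0.34 with a CKO signal of 20.4 and a WT signal of 19.3. Of the T cell markers, 5 of 7 genes that have a probe were well above background, at a summed level of 38.9% on the CKO array and 80.1% on the WT array, with Cd3d and Cd8b1 on neither. That difference came from Cd8a, at 4.24% on the CKO array and 46.9% on the WT array, without which the sums were 34.7% on the CKO array and 33.1% on the WT array. Another probe of Cd8a gave −0.23.

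The atypical receptor Cxcr7, now named Ackr3, binds and clears Cxcl12 without G protein signalling. It had a level of 529% on the CKO array and 795% on the WT array, at −0.59 ± 0.20 (spot error). Cxcl12, Cxcr4 and Cxcr7 were thus all lower, at −0.99, −1.19 and −0.59. In some other pairs the receptor and the ligand lay further apart. Ccl2 was at −2.68, while Ccr2 had a bound of −1.15 and may lie lower. Cxcl10 was at −1.90 and Cxcl9 at −0.60, while their dim receptor Cxcr3 was at 0.40 ± 0.34 (spot error). Cx3cl1 was at −0.16, while Cx3cr1 was at −0.77.

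**Figure D3:**
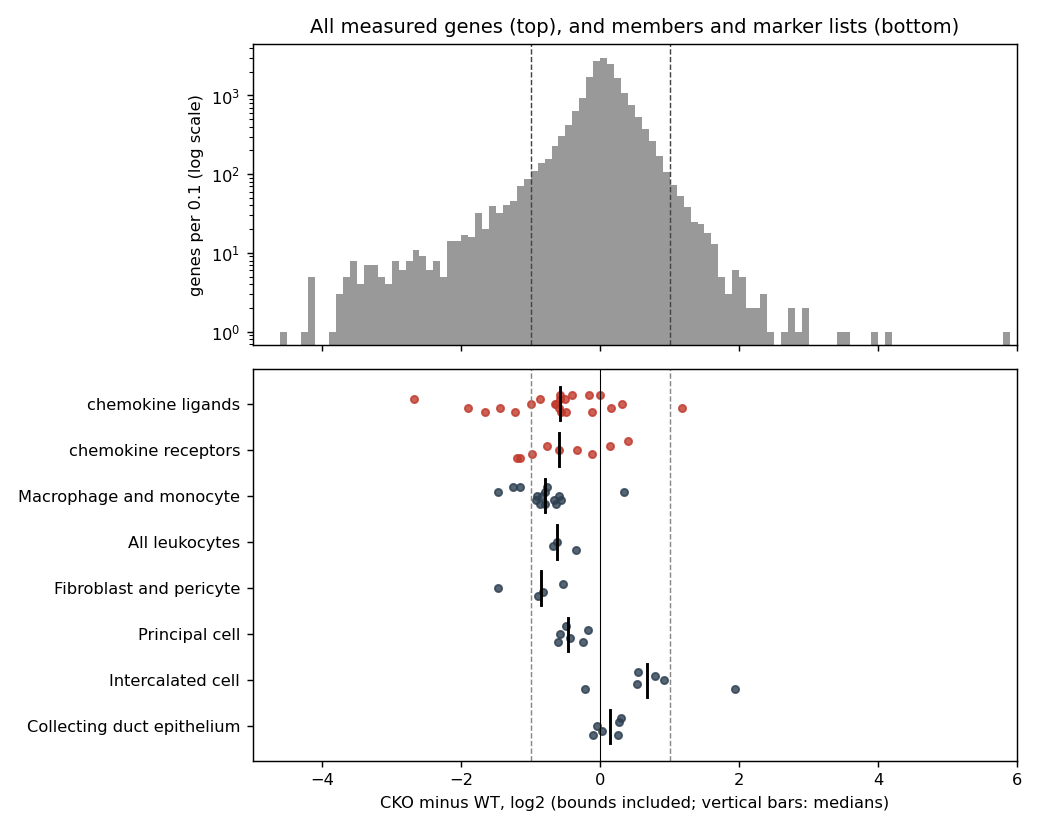
Difference of all 18690 genes (top, genes per bin of 0.1 on a log axis) and of the ligands, receptors and marker lists (bottom, 1 point per gene with a bar at the median), all as CKO minus WT on the log2 scale. The medians of ligands and receptors, −0.58 and −0.59, lie between those of the macrophage list at −0.80 and of the collecting duct epithelium list at 0.14.

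Markers of other cells differed as well. The 3 genes of all leukocytes had a median of −0.62, with Ptprc, or CD45, at −0.35. The fibroblast and pericyte list, another possible source of Ccl2 and Cxcl12, had a median of −0.86 over 4 genes. Its summed level was 387% on the CKO array and 595% on the WT array over 5 genes, Lum included. Without Dcn the sums were 73.7% on the CKO array and 141% on the WT array. The endothelial list had a summed level of 39.9% on the CKO array and 69.1% on the WT array. Without Vwf the sums were 34.1% on the CKO array and 49.0% on the WT array. Of the endothelial genes 5 of 5 were lower, Pecam1 and Cdh5 by their bounds, against 42.5% of all genes. Pecam1 and Kdr were within the spot error, at −0.22 against 0.60 and −0.31 against 0.32. For dendritic cells the sums were 59.3% on the CKO array and 90.0% on the WT array over 3 of 5 genes, with Cd209a and Clec9a well above background on neither. Without Itgax, whose other probe gave −0.04, they were 10.8% on the CKO array and 13.5% on the WT array. Neutrophil markers summed to 17.6% on the CKO array and 31.2% on the WT array over 3 of 5 genes, with S100a8 and Retnlg well above background on neither. Without S100a9 they summed to 15.0% on the CKO array and 17.9% on the WT array. B cell markers summed to 268% on the CKO array and 150.1% on the WT array over 3 of 5 genes, with Ms4a1 and Pax5 well above background on neither. Without Cd79b they summed to 12.8% on the CKO array and 15.7% on the WT array. The 6 principal cell markers had a median of −0.46, the 6 intercalated cell markers one of 0.67, and the 6 general collecting duct markers one of 0.14. The part of each in the differences of the chemokines was not tested, and with 1 array per genotype it cannot be told apart from a change within a cell type.

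The members lie in clusters, and neighbours differed in the size of their difference. On chromosome 11 (mm9) the probes of Ccl2, Ccl7, Ccl11, Ccl12, Ccl8 and Ccl1 lie at chr11:81850650-81990395. All 4 of these genes with a difference were lower, Ccl7 by its bound, against 42.5% of all genes. They ran from −2.68 for Ccl2 to −0.66 for Ccl8, and Ccl11 and Ccl1 were not measurable. In the other cluster of this chromosome, at chr11:83339296-83478111, the 5 genes Ccl5, Ccl9, Ccl6, Ccl3 and Ccl4 were measured on both arrays, from −0.63 to −0.01, and 0 of them were 2-fold apart. The highest of these, Ccl5, had probes of opposite sign and a difference within its spot error. On chromosome 5 the trio Cxcl9, Cxcl10 and Cxcl11 spans 38.1 kb at chr5:92752191-92790274, with Cxcl10 at −1.90 beside Cxcl9 at −0.60. On chromosome 8, Ccl22, Cx3cl1 and Ccl17 lie within 61.1 kb, the first not measurable, the second at −0.16 and Ccl17 at 1.18.

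**Figure D4:**
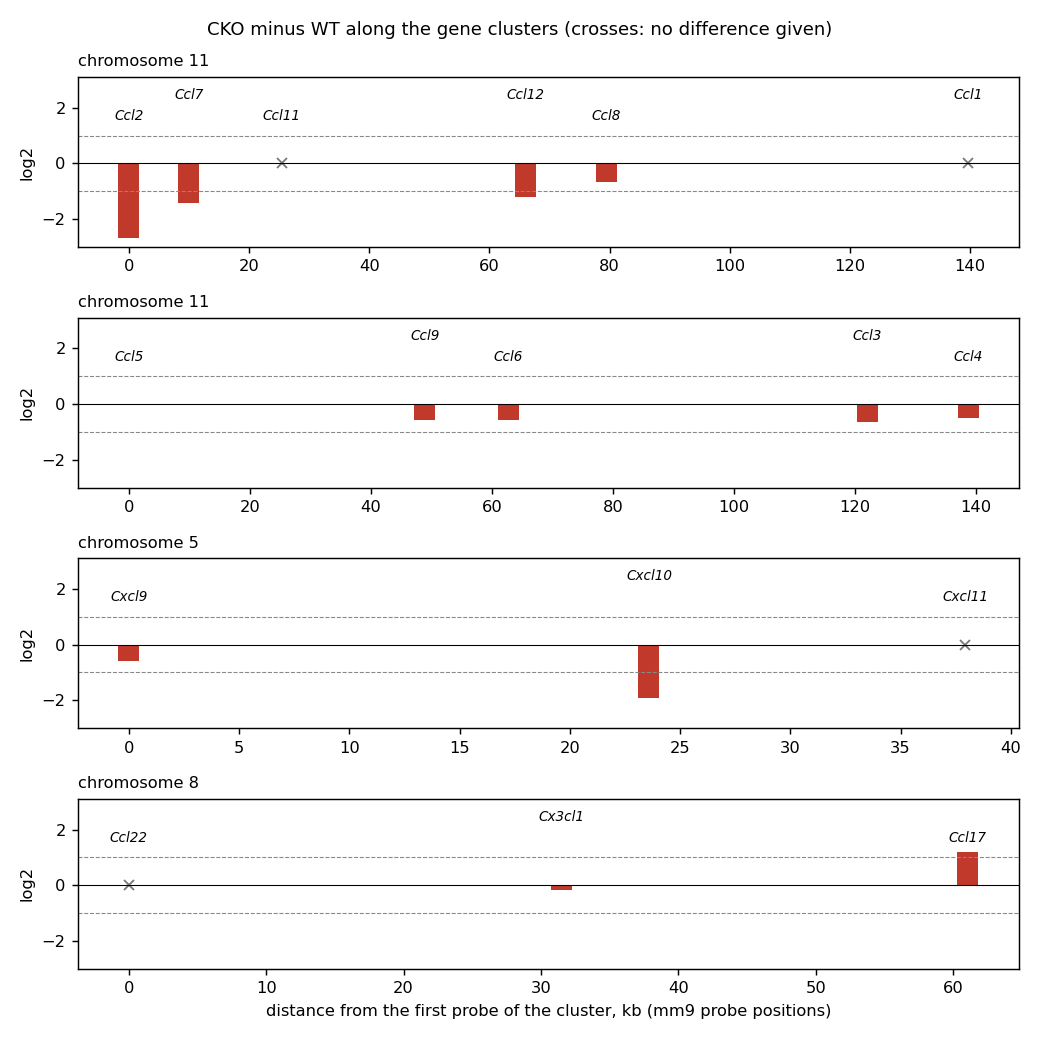
Difference along 4 gene clusters of ligands, CKO minus WT on the log2 scale against distance from the first probe in kb. Bars start at 0 and include bounds, crosses mark genes with no difference, and dashed lines mark 2-fold. The bars of the Ccl2 cluster reach from −0.66 to −2.68, and those of the Ccl3 and Ccl4 cluster stay within −0.63.

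Other genes of the pathway were read from lists. Of 6 chemokines and scavenger receptors with other names, 3 were measured. Platelet factor 4, Pf4, was at −0.71 ± 0.20 (spot error), and the atypical receptor Ccrl2 at −0.78 ± 0.31. Ackr2, named Ccbp2 in the files, a scavenger of inflammatory CC chemokines, was measurable on the CKO array alone and at least 2.81-fold higher there, with a CKO signal of 26.9 and a WT signal of 10.6. Being measurable on the CKO array alone, it could only come out higher, by the way the bound was set.

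Signal transduction genes had a median of −0.31 over 19 genes, with 16 lower and 1 at least 2-fold lower. That gene was Pik3cg, the PI3-kinase of leukocyte migration, at −1.10 ± 0.31 (spot error). Of all genes, 42.5% were lower and 2.88% at least 2-fold lower. Dock2 and Elmo1, measurable on the WT array alone, entered as bounds. The blood cell genes Vav1 at −0.74, Rac2 at −0.62 and Plcb2 at −0.52 were lower too. Of the proteases that process chemokines, 3 of 6 were measured. Dpp4, which trims Cxcl10 and Cxcl12, was at 0.40, Adam10 at 0.23 and Adam17, a sheddase of Cx3cl1, at 0.05.

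Among the inducers, 12 of 16 were measured, and 9 of them were lower, against 42.5% of all genes. Their median was −0.15, and 0 were at least 2-fold apart. Interleukin 1 beta, Il1b, had a level of 70.5% on the CKO array and 126% on the WT array, at −0.83 ± 0.21 (spot error). The NF-kB subunits Relb and Nfkb2, themselves targets of NF-kB, were at −0.79 and −0.64, and Nfkb1 at −0.25. Rela at −0.16, the inhibitor Nfkbia at −0.15 and the interferon factor Irf1 at −0.06 did not exceed the spot error of 0.20. Tnf, Il1a, Il6 and Ifng were well above background on neither array.

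The size of these differences depended on the processing. With normexp background correction, whose offset of 50 shrinks dim signals, 2 members stayed at least 2-fold lower, Ccl2 at −1.34 and Cxcl10 at −1.75, against 1.12% of all genes. Cxcl1 was then at −0.85, Ccl12 at −0.95, Cxcr4 at −0.66, Ccl7 at −0.31, Ccr2 at −0.04 and Ccl17 at 0.43. Setting spike-in transcripts equal moved the median of all genes to −0.50, and 20 members were then at least 2-fold lower, against 8.74% of all genes, while Ccl17 was at 0.64. Ccl19, Ccl27a, Xcr1 and Cxcr3 turned to lower in CKO cells there, and with normexp or the mean over its probes Ccl5 turned to higher.

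**Figure D5:**
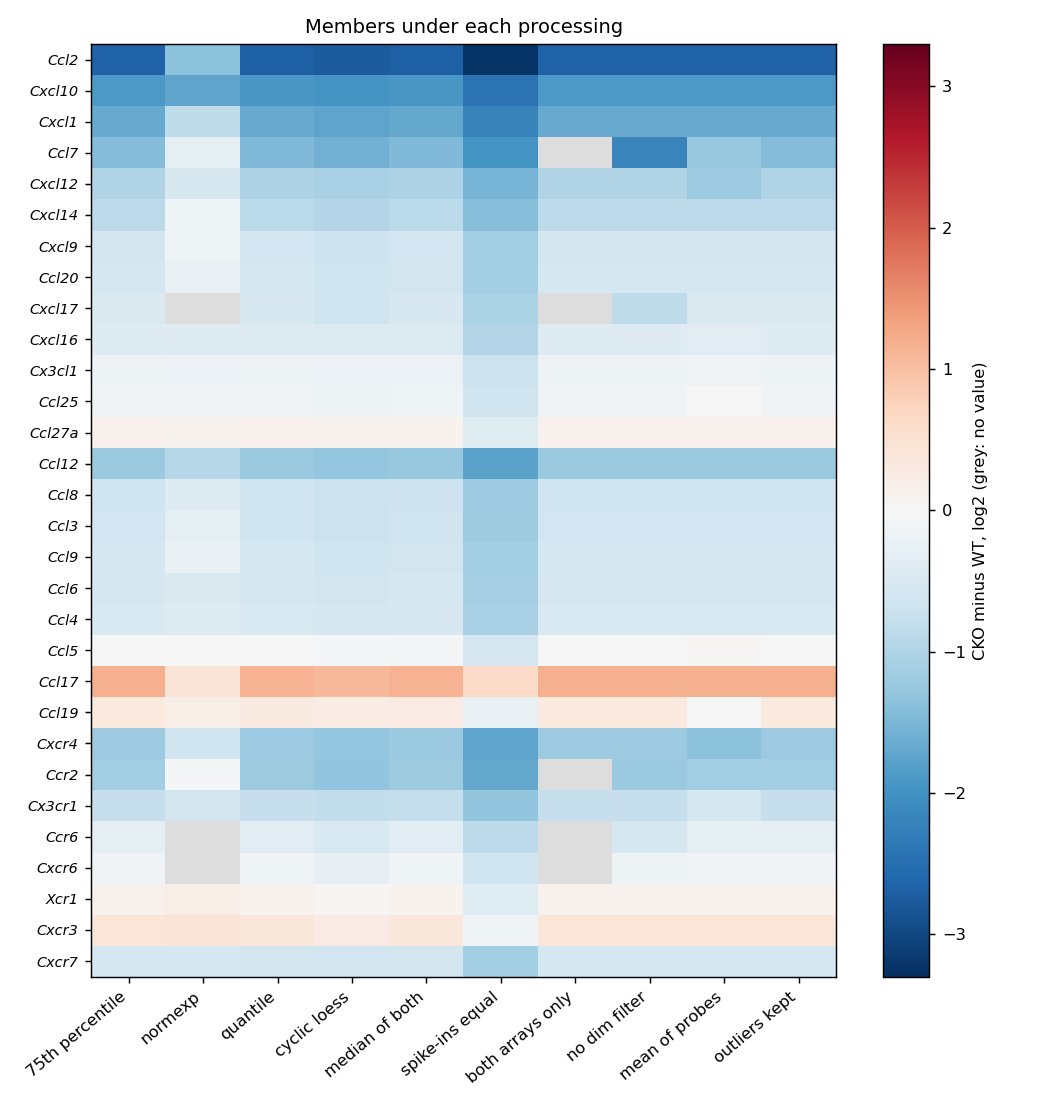
Difference of the named measured members (rows, ordered by role) under each processing (columns, 75th percentile scaling first), CKO minus WT on the log2 scale. Blue is lower in CKO cells, red is higher and grey has no value. Ccl2 and Cxcl10 stay below −1 in every column, normexp gives paler colours for dim genes, and equal spike-ins shift all of them to blue but Ccl17.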

How the data were processed

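The deposited files give the raw scanner read-out of 2 Agilent arrays labelled with Cy3, as linear intensity of each spot. The authors took these intensity values with Agilent Feature Extraction 10.7.3.1 and its detrended background subtraction, with probes placed on mm9, per the file headers. Per the labels' protocols, the input was 50 ng of RNA for a low-input labelling kit. The 2 arrays shared 1 slide. What the authors did to compare the arrays is not analysed here.

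On each array 43379 spots were not controls. Outlier spots, 73 in CKO and 66 in WT, were dropped, and 0 were saturated. Processed signals were taken as log2, scaled to the 75th percentile per array, and averaged over repeated spots. For a gene with several probes, the brightest measurable probe was used. Where a probe was measurable on 1 array, the difference is a bound against the lowest measurable level of the other array, or the dim probe's own level if that was higher, and bounds enter counts and medians.

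With 1 array per genotype no p-value is given, and 2-fold was the rule of size. Spot errors come from the scanner software and cover no mice. As a guide to probe error, the probes of 1 gene scattered with a standard deviation of 0.27 (root mean square, log2, 5344 genes). The rule for names took every member measurable on at least 1 array, of which 1 is not reported here by name. From the lists of other pathway genes it took those at least 2-fold apart and up to 4 a list furthest from 0, and Rela, Nfkbia and Irf1 were added after their values were seen. The members and lists were chosen with earlier results of these data known. Accessions of 68 of the 71 probes were found in the RefSeq table of GRCm38.p6, whose build the promoters share. Whether probes lie in coding or untranslated parts was not analysed here. The steps were tested on simulated data. R 4.3.3, limma 3.58.1, numpy 2.4.6 and Python 3.11.15 were used.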

Additional observations from a re-analysis of the deposited data

How the results depend on the processing

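The main median difference was −0.58 for ligands and −0.59 for receptors, with 7 members at least 2-fold lower and 1 at least 2-fold higher. Of all genes, 2.88% were at least 2-fold lower and 1.50% at least 2-fold higher. With normexp the medians were −0.30 for ligands and −0.57 for receptors. At least 2-fold lower were 2 members, against 1.12% of all genes, and 0 were at least 2-fold higher. With spike-in transcripts set equal, by 8 of them, the medians were −1.12 for ligands and −1.004 for receptors. At least 2-fold lower were then 20 members, against 8.74% of all genes, and 0 were at least 2-fold higher. With no filter on dim probes the medians were −0.16 and −0.10 over all 55 genes. At least 2-fold higher were 4 members, against 1207 of all 30038 genes. Of these 4 members, 3 were well above background on neither array. Quantile normalization, cyclic loess and median scaling each gave 9 members at least 2-fold lower, with Cxcl12 among those added. The shares of all genes were 3.01%, 3.41% and 3.02% in that order. The mean over the probes of a gene gave 8, probes well above background on both arrays 5, and outlier spots kept 7. No paired analysis was possible because each genotype has 1 array. No replicate could be left out for the same reason. The arrays were not saturated, and signal over background limits the 6 members measurable on the WT array alone, Ccl7, Cxcl17, Ccr2, Ccr6, Cxcr6 and Ccr9, of which Ccr9 has no bound, and among those measured on both arrays dim ones such as Ccl17, Cxcl14 and Cxcr3.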
